A study of Rattus norvegicus with 233 samples.

Results

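Control-diet rat hepatocytes measured 24 h after partial hepatectomy had values for more of an 84-assay real-time PCR panel than hepatocytes of the same diet at 0 h. The 2 groups held 124 of the 233 single cells in the series, with 69 cells labelled Carbohydrate and 0 hr and 55 cells labelled Carbohydrate and 24 hr. All 124 cells were chosen by these labels alone, and all 84 assays were examined. The other 109 cells came from rats on the Ethanol diet. They are used here only to choose the assays for scaling and, near the end and in the flagged result on A26, for comparison with the control diet. All groups carry the Lieber-De Carli feeding protocol in the labels, so the control rats were also kept on that liquid diet regimen, with carbohydrate in the place of ethanol. The cells were cut from liver by laser capture microdissection. The sources used here give neither strain, sex and age nor the number of animals, and the labels link no cell to its animal. Each group was therefore taken as a single sample, no test was made, and every difference below describes these cells, without a replicate check. Errors are SDs over cells.

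Partial hepatectomy removes part of the liver, and the remaining hepatocytes, which rarely divide in the adult, leave their resting state, enlarge and enter the cell cycle until the mass is restored. Hepatocytes also keep up metabolism, bile formation and the secretion of plasma proteins during that time. In the rat many hepatocytes replicate their DNA around the first day, so that time is often chosen to look at cells that have started to respond. Single-cell measurement shows whether a tissue difference comes with more cells that have a transcript, more transcript in each cell, or a wider spread between cells. The comparison of 24 h with 0 h on the control diet asks how single hepatocytes differ after resection without ethanol.

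Which gene an assay number stands for is not stated in the sources used here. Assays are therefore reported by number, no marker of hepatocytes or of other liver cells could be checked, and no primer sequence could be shown. Each value is a cycle threshold (Ct), the cycle at which a product passes detection, which falls by 1 for each doubling of template if every cycle doubles the product. Among the control cells, 3728 of 5796 entries at 0 h (64.3%) and 3727 of 4620 entries at 24 h (80.7%) had a value, and the rest were listed as NULL. A NULL can be a transcript below detection or a failed reaction. The values lay between Ct 2.5 and 25.9.

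2 features of the cells bear on what follows. A05, A11, A29, A56 and A66, called the 5 jointly missing assays below, were all NULL in 15 of the 69 cells at 0 h and 12 of the 55 cells at 24 h. The numbers of these cells in the labels lay close together: at 0 h, 14 of the 15 lay in runs of 4 or 5 consecutive numbers, and at 24 h, 11 of the 12 lay in runs of 2 to 4. The sources used here do not say what a cell number stands for. The other feature is cell 43 at 24 h. Of the 8 values among control cells that came at least 7 cycles earlier than the median of their assay, 6 were in that cell. It had Ct 2.5 for A32, 3.40 for A16, 3.70 for A82, 4.32 for A37 and 5.05 for A24, which were 10.9, 10.9, 9.97, 8.97 and 7.41 cycles below the assay medians, while it had values for 59 assays. Values without these cells are given below where they changed the reading of a result.

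Values were counted per cell first. At 0 h the cells had values for 33 to 78 of the 84 assays, with a median of 54. At 24 h they had values for 35 to 80, with a median of 71. The ranges overlapped almost completely, and the upper quartile at 0 h, 62, lay just under the lower quartile at 24 h, 63.5. The common-assay median Ct of a cell is its median Ct over 28 assays with values in 80% or more of cells in each of the series' groups, with a NULL counted as Ct 30. It was lower at 24 h, with a median of 13.3 against 14.5, although 6 cells at 24 h and 2 at 0 h lay above Ct 17. In both groups, cells with a lower common-assay median had more values, with Spearman's rho of -0.78 over 69 cells at 0 h and -0.78 over 55 cells at 24 h. Both quantities come from the same reactions, so this is a description of how they move together.

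The difference in values per cell remained among cells with a like common-assay median. The middle 50% ranges of the 2 groups overlapped from Ct 13.5 to 14.0, and this range was widened by 0.5 cycles on each side. Between the resulting limits of Ct 13.0 and 14.5 there were 25 cells at 0 h and 23 at 24 h. Their median number of values was 56 at 0 h and 70 at 24 h. Within this band the common-assay median was still lower at 24 h, at 13.4 against 13.9. The difference of 14 assays compares with 17 over all cells.

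**Figure D1:**
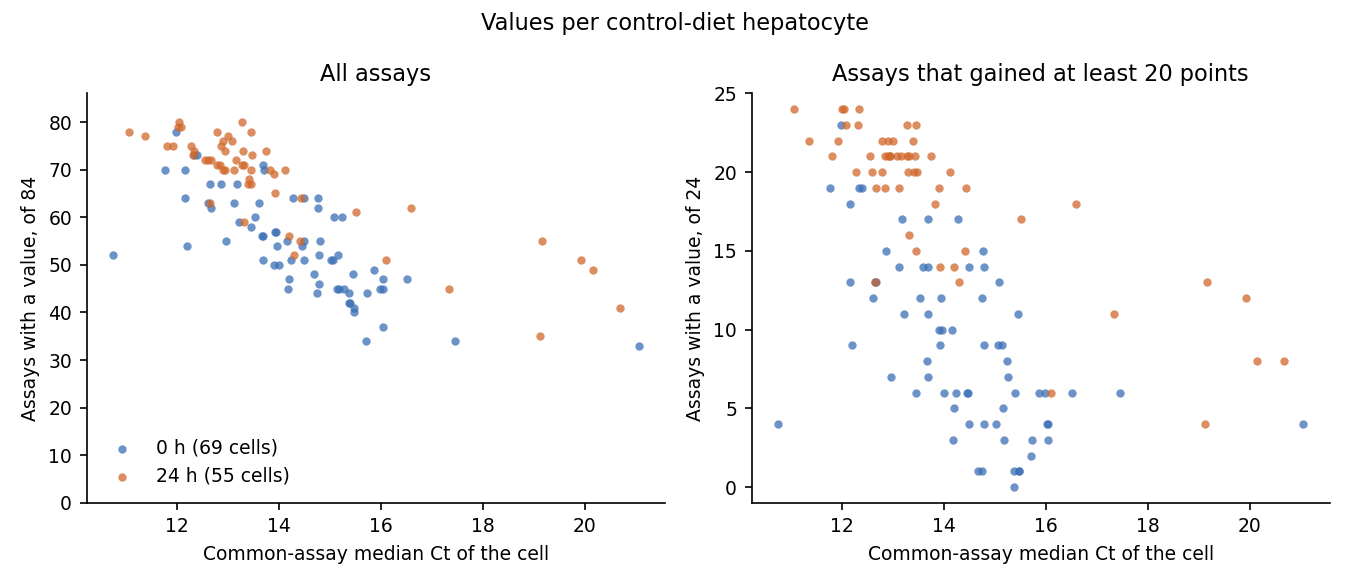
Number of assays with a value (left, of 84; right, of the 24 assays that gained at least 20 percentage points) against the common-assay median Ct of each cell, with 1 point per control-diet hepatocyte at 0 h (blue, 69 cells) and 24 h (orange, 55 cells). At a like median Ct the 24 h cells mostly lie above the 0 h cells, and 6 cells at 24 h and 2 at 0 h lie above Ct 17.

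More assays had a value in a larger share of cells at 24 h, and the difference was concentrated in assays that few cells had at 0 h. The share was higher at 24 h for 74 of 84 assays, lower for 9 and equal for 1, with a median difference of 9.75 percentage points. It was higher by at least 20 points for 24 assays (28.6% of those compared) and lower by that much for 0 (0%). For 23 assays the exact Clopper-Pearson 95% intervals of the 2 shares did not overlap, all with the higher share at 24 h. These intervals cover counting error over cells and not the spread between animals. Within the band of like common-assay medians, 23 assays were higher by at least 20 points, and without cell 43 there were 24.

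The size of the gain went with the share at 0 h. The 22 assays seen in under 50% of the cells at 0 h gained a median of 42.7 points, and 16 of them gained at least 20. The 32 assays at 50% to under 80% gained a median of 10.5 points, with 8 past 20. The 30 assays at 80% or above, which could gain at most 20 points, gained a median of 3.78. The share at 0 h limits the possible gain in every class and is itself part of the difference. Some relation between them is therefore built in, and these numbers are descriptions.

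A08 had the largest difference in share. At 0 h 14 of 69 cells (20.3%) had one, against 45 of 55 (81.8%) at 24 h. Its relative level, the common-assay median of a cell minus the Ct of the assay, which rises with the amount of transcript set against the common assays, hardly differed among cells with a value. It ran from -5.86 to 0.22 with a median of -1.88 at 0 h, and from -6.99 to 1.31 with a median of -1.58 at 24 h. The 2 sets of values overlapped throughout, and the mean was higher by 0.34 at 24 h, with SDs of 1.49 and 1.54. A08 therefore differed in how many cells had a value and little in the level of those cells. Within the band of like common-assay medians 6 of the 25 cells at 0 h and 21 of the 23 at 24 h had a value for it.

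A82 was next in share, with 18 of 69 cells at 0 h (26.1%) and 48 of 55 at 24 h (87.3%), and it differed in level too. At 0 h its relative level ran from -8.92 to -0.24 with a median of -2.87. At 24 h it ran from -5.53 to 9.62 with a median of -0.19, the highest value being that of cell 43. None of the 69 cells at 0 h lay above the 24 h median, although the ranges overlapped. The mean was higher by 2.88, or by 2.68 without cell 43.

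The 2 largest losses in share were small. A81 was seen in 68 of the 69 cells at 0 h (98.6%, exact interval 92.2% to 100.0%) and in 51 of 55 at 24 h (92.7%, 82.4% to 98.0%). A26 had a value in 64 of 69 cells (92.8%, 83.9% to 97.6%) and in 49 of 55 (89.1%, 77.8% to 95.9%). In both assays the intervals overlapped, and no interval was computed for the differences of -5.82 and -3.66 points themselves.

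Most cells at 24 h had most of the assays with a large gain. Of the 24 assays that gained at least 20 points, cells at 0 h had values for 0 to 23 with a median of 8, and cells at 24 h for 4 to 24 with a median of 20. Only 4 of the 55 cells at 24 h had as few as the median cell at 0 h, and 1 of the 69 cells at 0 h had as many as the median cell at 24 h. The number went down with a higher common-assay median Ct at both times, with rho of -0.74 over 55 cells at 24 h and -0.64 over 69 cells at 0 h. Because the 24 assays were picked for this difference, these numbers describe how it is spread over cells and do not support it.

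Level was compared among cells with a value for the 80 assays with at least 10 such cells at both times. At 24 h the mean relative level exceeded that at 0 h by 1 log2 unit or more for 22 assays (27.5%), was lower by as much for 3 (3.75%), and differed by less for 55. The middle 50% of the differences ran from -0.37 to 1.09, around a median of 0.23. The median was 0.14 without the cells above Ct 17, 0.08 with medians over cells and 0.0038 if values later than Ct 20 were left out. Without scaling it was 0.69, so the Ct of the middle assay was lower at 24 h, and the relative levels are read against that shift. The 4 assays not compared, with 6 to 9 cells with a value at 0 h, all gained at least 20 points in share. Among the cells not lacking all 5, 20 assays were higher and 4 lower. The number lower was 5 without cell 43 and 6 without the cells above Ct 17.

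Level and share were then set side by side. Of the 22 assays higher in level, 12 (54.5%) also gained at least 20 points, against 24 of all 84 assays (28.6%). These 12 were 50.0% of the 24 that gained, against 22 of the 80 assays compared in level (27.5%). Of the other 12 that gained in share, 8 were compared in level and differed by less than 1, and 4 had too few cells. Those 4 count among the 84 and the 24 but could not be among the 22, so the shares are over unlike sets. No compared assay that gained at least 20 points had a level at or below that at 0 h. Of the 10 assays higher in level only, 4 were already seen in at least 80% of the cells at 0 h, as were 30 of the 80 assays compared in level. That is a like share, so it does not mark these assays. The 3 assays lower in level were all common assays, as were 4 of the 22 higher ones, against 28 of the 80 assays compared. Both directions thus occurred within the set used for scaling, but not in proportion to its share of the assays.

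**Figure D2:**
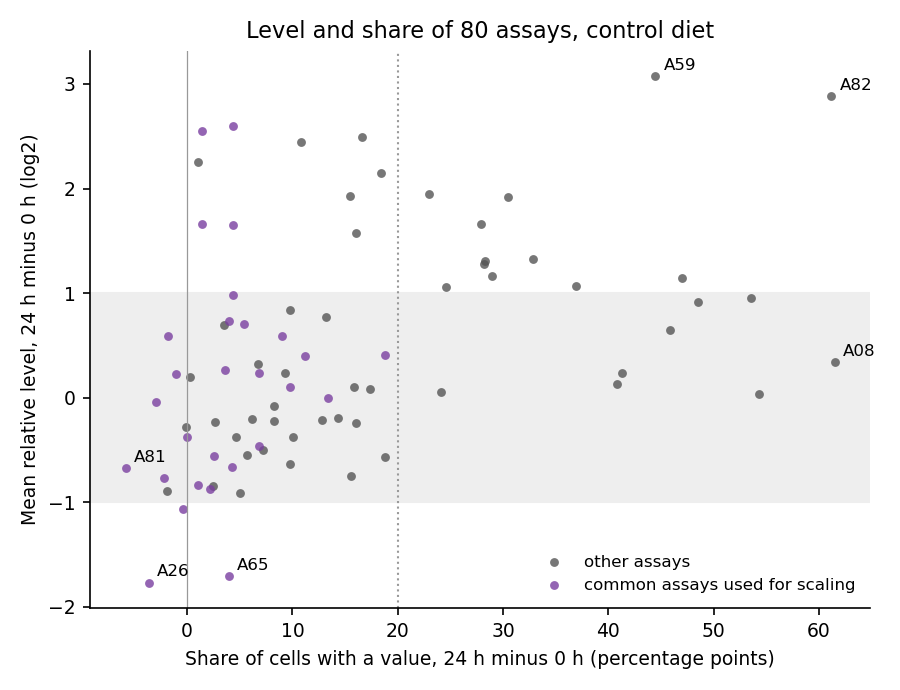
Difference in mean relative level (vertical axis, log2) against difference in the share of cells with a value (horizontal axis, percentage points), 24 h minus 0 h, for the 80 assays compared, with the 28 common assays in purple. The grey area spans differences in level under 1 and the dotted line marks 20 points. A59 and A82 lie high in both, A08 only in share, and A26 and A65 lie lowest in level with shares that hardly differ.

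A59 had the largest difference in level, and rested on few cells at 0 h. It had a value in 17 cells at 0 h, from -8.45 to 0.79 with a median of -5.17, and in 38 cells at 24 h, from -8.70 to 2.03 with a median of -0.62. The ranges overlapped, and 3 of the cells at 0 h lay above the 24 h median. The mean was -4.22 ± 2.98 (SD, n = 17 cells) at first and -1.14 ± 1.97 (SD, n = 38 cells) later. That is a difference of 3.08, and the medians differed by 4.55.

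A26 and A65 had the lowest differences in level. For A26 the relative level ran from -8.82 to 4.25 with a median of -1.53 in 64 cells at 0 h, and from -9.88 to 5.18 with a median of -4.08 in 49 cells at 24 h. Its 2 groups covered nearly the same range, and 9 of the 49 cells at 24 h lay above the 0 h median. The mean difference was -1.77. It was -0.65 among the cells lacking all 5 jointly missing assays and -2.05 among the others. For A65 the relative level ran from -7.54 to 6.66 with a median of 0.29 in 60 cells at 0 h, and from -5.48 to 2.87 with a median of -1.72 in 50 cells at 24 h. Only 2 of the 50 cells at 24 h lay above the 0 h median, so A65 shifted with less overlap than A26. Its mean difference was -1.71. With NULL entered at Ct 30 it was -0.92, below the size rule of 1.

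Level and share were joined in 1 measure by ranking all cells. For each assay, the rank share is the percentage of all pairs of a 24 h cell and a 0 h cell in which the 24 h cell was higher, with NULL ranked lowest and a tied pair, such as 2 cells without a value, counted as 0.5, so that 50% means no order between the groups. It was above 50% for 61 assays and below for 23, with a median of 58.0%. It reached at least 75% for 18 of 84 assays (21.4%) and at most 25% for 1 (1.19%). Without scaling there were 21 and 0. No assay separated the 2 groups fully.

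A82 ranked highest at 89.4%, followed by A12 at 87.5%. A12 was seen in 48 of the 69 cells at 0 h (69.6%) and in all 55 cells at 24 h (100.0%, exact interval 93.5% to 100.0%). Its relative level ran from -9.19 to 6.75 with a median of 0.29 at 0 h, and from -1.72 to 6.21 with a median of 1.92 at 24 h. Of the 55 cells at 24 h, 50 lay above the 0 h median, and the low values of the 0 h cells had no counterpart at 24 h.

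A40 ranked lowest at 23.1%, followed by A65 at 27.0%. A40 was among the earliest assays of the panel, with a median Ct of 8.66 at 0 h and 8.34 at 24 h. Its relative level ran from 1.97 to 10.1 with a median of 5.53 in 68 cells at 0 h, and from -0.62 to 8.14 with a median of 4.85 in 53 cells at 24 h. The median Ct of A40 was thus slightly lower at 24 h, while its level relative to the common assays was lower. Without scaling its rank share lay 0.04 above 0.5 on a scale of 0 to 1, so its direction turned with the scaling.

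**Figure D3:**
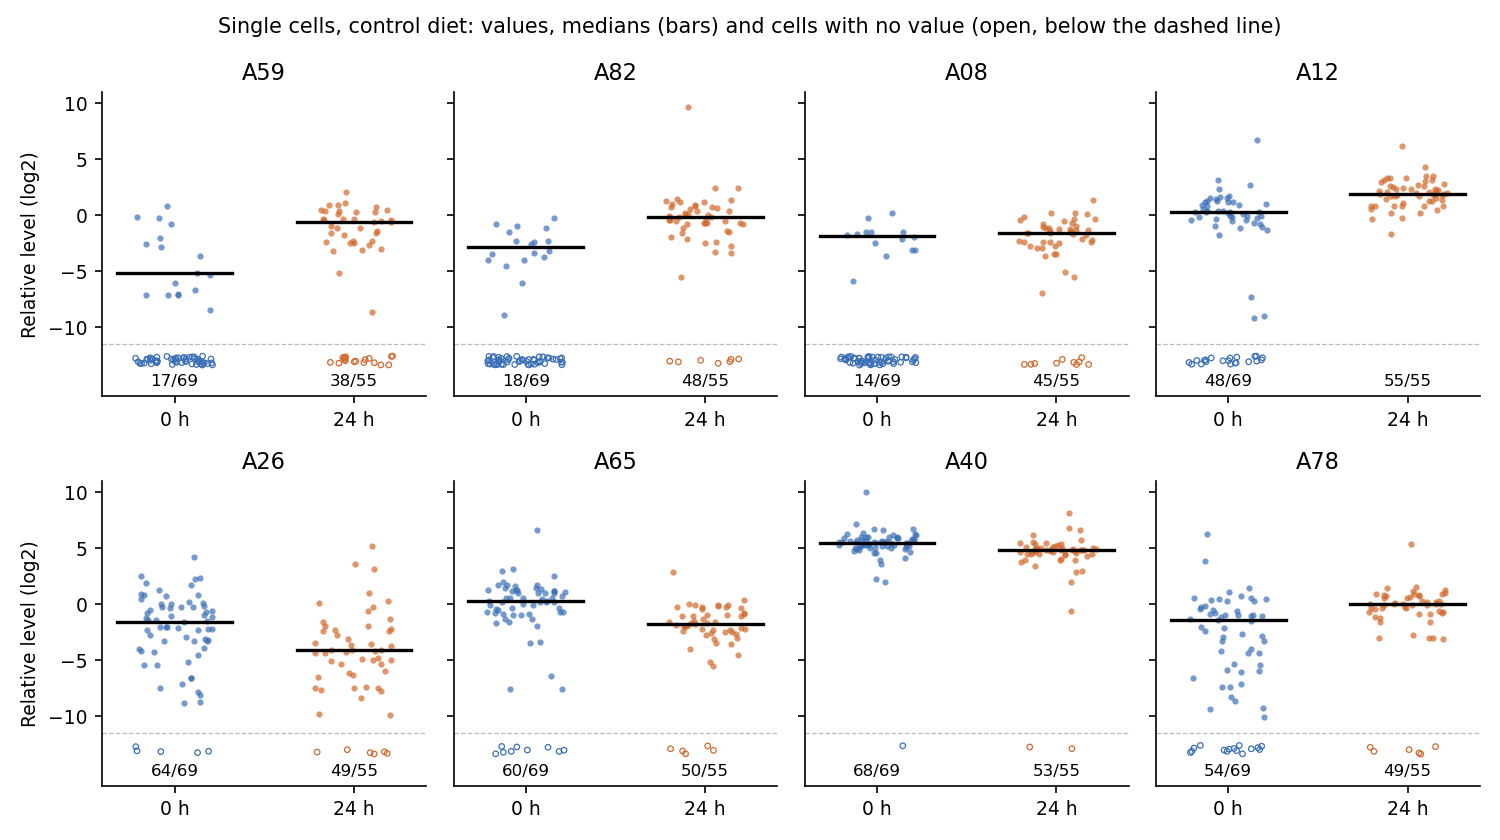
Relative level (log2) of 8 assays in single control-diet hepatocytes at 0 h (blue) and 24 h (orange). Filled points are cells with a value, bars are medians over them, open points below the dashed line are cells with no value, and the fractions give cells with a value over all cells. A08 differs in the number of filled points, A65 in their height, and A59, A82 and A12 in both, while A78 loses its low values.

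The spread between cells was smaller at 24 h for many assays after scaling, and this depended on the scaling and on the cells used. Among 69 assays with a value in at least 20 cells at both times, the SD of the relative level was smaller at 24 h for 45 and larger for 24, with medians of 2.18 at 0 h and 1.56 at 24 h. It was smaller by at least 0.5 for 27 (39.1%) and larger by at least 0.5 for 5 (7.25%). Without scaling, 10 were smaller and 13 larger by at least 0.5, and the median SDs were 2.29 at 0 h and 2.40 at 24 h. Within the band of like common-assay medians, 39 assays could be compared, and 7 were smaller and 5 larger by as much. Without the cells above Ct 17, 35 of 69 were smaller and 2 larger. With values above Ct 20 treated as missing, 11 were smaller and 9 larger. Such late values made up 385 of 3728 at 0 h (10.3%) and 279 of 3727 at 24 h (7.49%). Their part in the difference of spread was not tested beyond this.

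A78 and A05 narrowed most. For A78 the relative level ran from -10.04 to 6.28 at 0 h, with quartiles of -5.08 and -0.26, and from -3.07 to 5.42 at 24 h, with quartiles of -0.72 and 0.72. Its SD at 0 h was 3.46 (n = 54 cells), and later 1.44 (n = 49 cells). The lower tail at 0 h was absent at 24 h: 12 of 54 values came later than Ct 20 at 0 h and 2 of 49 at 24 h. For A05 the relative level ran from -2.86 to 11.0 at 0 h and from 5.69 to 10.2 at 24 h, with SDs of 2.68 (n = 52 cells) and 1.05 (n = 42 cells). No value of A05 came later than Ct 20 at either time. Its median Ct was 8.02 at 0 h and 4.75 at 24 h. The SD of A05 differed by -1.64, and by -0.29 without scaling. Its interquartile range, rescaled to equal the SD for normally distributed values, differed by -0.77. The SD of A78 differed by -2.02, by -1.05 without scaling, by -0.95 with values above Ct 20 treated as missing and by -2.36 among the cells not lacking all 5.

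A16 and A23 widened most, by 0.60 and 0.59, and neither kept its direction under every alternative. For A16 the SD was 1.71 (n = 56 cells) before and 2.31 (n = 46 cells) after, with a highest relative level of 3.10 at 0 h and of 9.92 at 24 h, in cell 43. Without that cell the SD of A16 differed by -0.14, so that 1 cell decided the direction. For A23 the SD was 2.75 (n = 51 cells) and 3.34 (n = 46 cells), and the difference was -0.12 without the cells above Ct 17 and -0.35 without scaling.

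Of the 22 assays higher in level at 24 h, 18 could be compared in spread and 14 were narrower by at least 0.5 (77.8%), against 27 of all 69 assays compared (39.1%). These 14 were 51.9% of the 27 narrower assays, and assays higher in level were 18 of the 69 (26.1%). Level and spread come from the same cells, so these shares are descriptions.

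**Figure D4:**
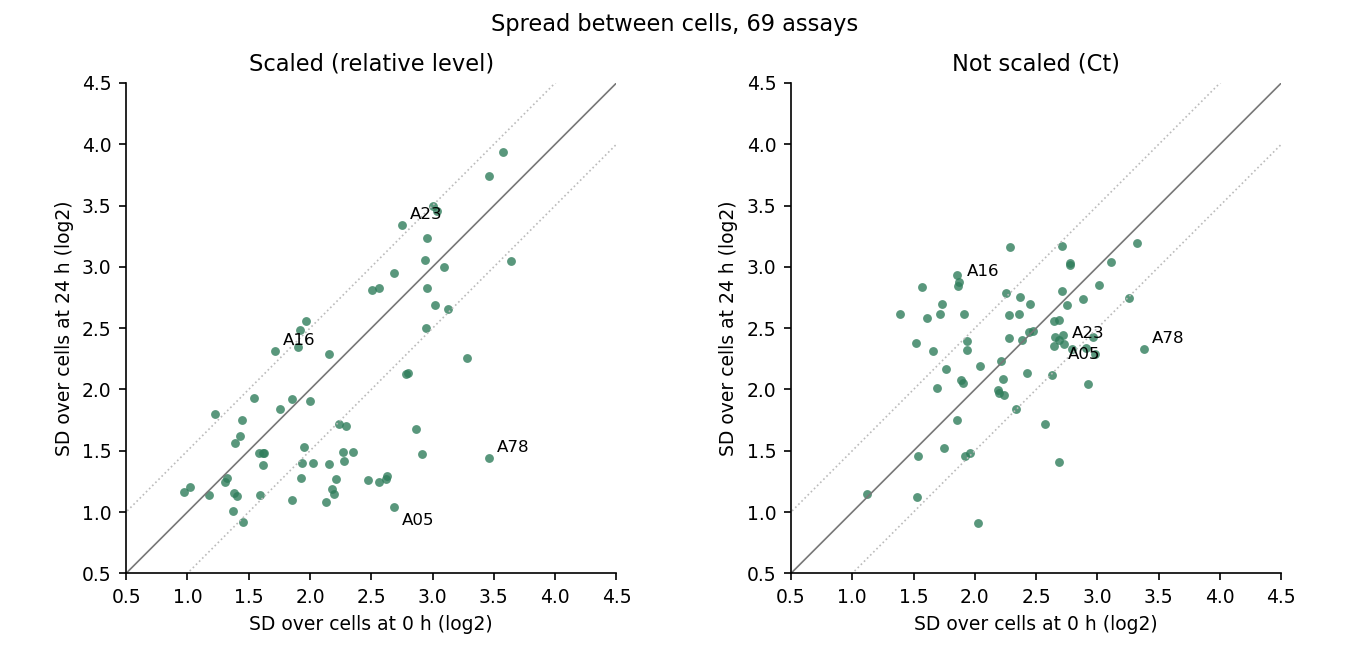
SD over cells at 24 h against SD over cells at 0 h (log2 units) for the 69 assays with a value in at least 20 cells at both times, on relative levels (left) and on Ct without scaling (right). The solid line marks equal SDs and the dotted lines a difference of 0.5. With scaling most points lie under the line, with A78 and A05 far below it, and without scaling 35 lie below and 34 above.

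Co-variation was described by Spearman's rho between 2 assays over the cells of 1 group with both values, for the 1715 of 3486 pairs with at least 30 such cells at both times. Most pairs were weakly related. The median rho of relative levels was 0.09 at 0 h and 0.06 at 24 h, and the middle 50% of pairs ran from -0.07 to 0.27 and from -0.10 to 0.23. A rho of at least 0.6 was reached by 39 pairs at 0 h (2.27%) and 38 at 24 h (2.22%). Only 5 pairs (0.292%) reached it at both times, which is 12.8% of the strong pairs at 0 h and 13.2% of those at 24 h. Assays of a cell share their reverse transcription, pre-amplification and scaling. Without scaling 139 pairs at 0 h and 220 at 24 h reached 0.6. Without the cells above Ct 17 the number at 24 h was 18.

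The 5 pairs strong at both times involved 6 assays in 2 sets that shared no assay. A07, A15, A74 and A77 formed the first, through A15 with A74, A07 with A77, A15 with A77, and A07 with A15. A23 and A81 formed the other. A15 and A74 had a rho of 0.76 over 69 cells at 0 h and 0.84 over 54 cells at 24 h. A07 and A77 had a rho of 0.77 over 37 cells and 0.68 over 31 cells. A23 and A81 had a rho of 0.66 over 50 cells and 0.74 over 42 cells.

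Cells lacking all 5 jointly missing assays were compared in level with the others. For 4 of these 6 assays the difference was at least 1 in size, in the same direction at both times. It was computed only for assays in the named pairs or the pairs strong at both times. The share of all assays with such a difference is therefore not known. The mean level of A74 in the cells lacking all 5, minus that in the other cells of the same time, was -2.65 at 0 h and -1.88 at 24 h. A15 differed by -1.37 and -1.25. A23 was higher by 1.73 and 1.80, and A81 by 1.54 and 1.90. A07 differed by -0.37 and 0.50, in opposite directions, and A77 by 0.07 and 0.06. Among the cells not lacking all 5, 3 of the 5 pairs had a rho of at least 0.6 at both times. A15 and A74 had 0.71 over 54 cells at 0 h and 0.77 over 43 cells at 24 h, A07 and A15 had 0.68 over 51 cells and 0.73 over 41 cells, and A23 and A81 had 0.69 over 35 cells and 0.67 over 30 cells. The pairs with A77, under 30 cells at each time there, were below 0.6 at 24 h, with 0.76 and 0.59 for A07 and A77 and 0.90 and 0.58 for A15 and A77. Without the cells above Ct 17, only A15 with A74 and A23 with A81 stayed at 0.6 or more at 24 h, at 0.77 and 0.62, while A07 with A15 had 0.56, A07 with A77 had 0.52 and A15 with A77 had 0.51. On Ct without scaling, A15 and A74 had 0.52 and 0.69, A07 and A77 had 0.61 and 0.28, A07 and A15 had 0.42 and 0.41, A15 and A77 had 0.35 and 0.25, and A23 and A81 had 0.71 and 0.65.

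Some pairs were related at 1 time only. The largest losses and gains were picked as the extremes of all pairs compared, so their size follows in part from the choice and they are descriptions. A26 and A27 had a rho of 0.38 over 43 cells at 0 h and -0.51 over 47 cells at 24 h, so that cells high in A26 tended to be high in A27 at 0 h and low in it at 24 h. Without scaling the values were 0.33 and -0.50, and among the cells not lacking all 5 they were 0.38 and -0.38. The difference in rho was -0.90, and it was -0.54 if values later than Ct 20 were left out. A11 and A27 had 0.54 over 39 cells and -0.28 over 41 cells, but 0.66 and 0.24 without scaling. A05 and A55 went from -0.01 over 50 cells to 0.77 over 42 cells, and A29 and A42 from -0.13 over 35 cells to 0.57 over 41 cells. Without scaling the values were 0.31 and 0.81 for A05 and A55, and 0.32 and 0.73 for A29 and A42.

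**Figure D5:**
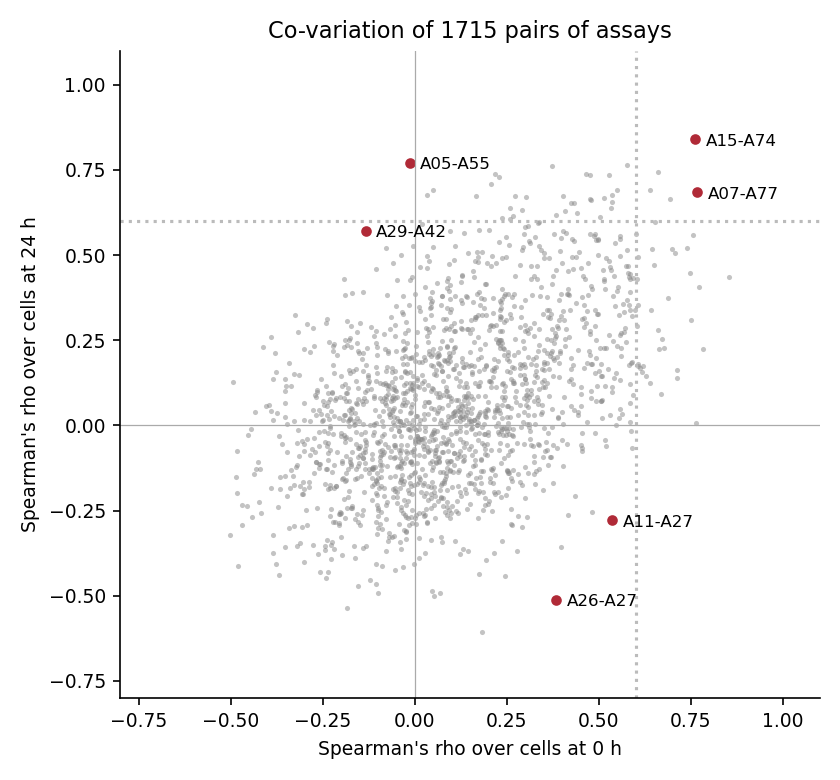
Spearman's rho over cells at 24 h against rho at 0 h for the 1715 pairs of assays with at least 30 cells with both values at each time, on relative levels. Red points are the named pairs and dotted lines mark 0.6. A15 with A74 and A07 with A77 lie high at both times, while A26 with A27 lies at 0.38 and -0.51.

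The values on the ethanol diet, from other cells, are set beside those on the control diet for the named assays and pairs, and the differences between diets were not tested. A82 differed by 2.01 in level on the ethanol diet against 2.88 on the control diet, and its share by 28.8 against 61.2 points. The smaller gain went with a higher share at 0 h, of 56.4% against 26.1%, while the shares at 24 h were 85.2% and 87.3%. The share for A08 likewise was 49.1% at 0 h and 77.8% at 24 h on the ethanol diet, against 20.3% and 81.8% on the control diet. A81 had a difference in share of -0.07 points against -5.82. In level, A59 was higher by 1.40 on the ethanol diet against 3.08. A65 was lower on both diets, with differences of -2.22 and -1.71, whereas A26 differed by 1.13 on the ethanol diet against -1.77 on the control diet. A12 had a rank share of 64.4% on the ethanol diet against 87.5%, and A40 of 41.2% against 23.1%.

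Spread on the ethanol diet was smaller at 24 h for the 4 assays named for it, though hardly for A16. The direction was not counted over all assays on that diet, so it is not shown to be particular to these 4. For A78 the SD was 2.64 at 0 h and 1.56 at 24 h in ethanol cells, against 3.46 and 1.44. A05 had 2.41 and 1.54, against 2.68 and 1.05. A16 had 1.21 and 1.18 and A23 had 3.09 and 2.60, so neither was wider at 24 h there. Among the pairs, A15 and A74 had a rho of 0.82 at 0 h and 0.79 at 24 h in ethanol cells, and A07 and A77 had 0.68 and 0.50. The pairs picked as extremes on the control diet had smaller differences in ethanol cells, with -0.08 and -0.32 for A26 and A27, 0.24 and 0.04 for A11 and A27, 0.06 and 0.33 for A05 and A55, and 0.28 and -0.05 for A29 and A42, the last in the other direction.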

How the data were processed

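Single hepatocytes were lysed and reverse transcribed, and the cDNA was pre-amplified for 22 cycles and run for 30 cycles with SYBR Green on a microfluidic array, per the labels' protocols. The authors deposited 1 table of non-normalized Ct values, which lie on a log2 scale. That they are Ct is read from the protocol and the values. The sources used here name neither the software nor the rule for NULL. Columns were matched to cells by their descriptions, and no 2 control cells had identical values.

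Relative levels, shares, rank shares, SDs and Spearman correlations were computed with Python 3.11.15, pandas 2.3.3, numpy 2.4.6 and scipy 1.17.1, and tested on simulated data. The minimum number of cells with a value was 10 for levels, 20 for SDs and 30 for pairs. The rule for naming took the first 2 assays or pairs in each direction of each measure. The comparison, the lists and the limits were chosen with earlier results of these data known. Cell 43 was singled out after its values were seen. Alternatives changed the scaling, the cells used, the treatment of NULL and late values, and the summary measure.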

Additional observations from a re-analysis of the deposited data

Results flagged for a closer look

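A26 was the 1 assay with a level difference of at least 1 in opposite directions by diet. Between 0 h and 24 h its mean relative level went from -2.04 to -3.81 in control cells, a difference of -1.77, and from -5.09 to -3.96 in ethanol cells, a difference of 1.13. The gap between these differences is 2.89. It was not tested, because there was a single sample per group. The levels at 0 h were unequal between the diets and are part of both differences, so their relation to the gap is built in.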

How the results depend on the processing

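The number of values per cell, the 24 assays that gained in share and the 18 with a rank share of at least 0.75 stayed within 1.5 times of these counts under each alternative run for them. The number higher in level was 56 with NULL entered at Ct 30 and 8 of 42 within the cells lacking all 5 jointly missing assays. The number lower was 6 with medians, with the band of like common-assay medians, with the limit of Ct 20 and without cells above Ct 17, and 5 within the cells lacking all 5 and without cell 43. The number with a rank share of at most 0.25 was 0 without scaling, 4 in the band and 2 among the cells not lacking all 5. The narrower assays numbered 17 with the rescaled interquartile range, 10 without scaling, 7 of 39 in the band and 11 with the limit of Ct 20. The wider ones numbered 13 without scaling, 5 of 39 in the band and 9 with that limit. They numbered 3 among the cells not lacking all 5, 3 without cell 43 and 2 without cells above Ct 17. Strong pairs at 0 h, 24 h and both times numbered 67, 76 and 13 with Pearson's r, 139, 220 and 57 without scaling, and 18, 24 and 3 with scaling to every assay with a value. At both times they numbered 10 with equal cell numbers, 9 among the cells not lacking all 5 and 2 without cells above Ct 17, where 18 were strong at 24 h. In the band no pair had 30 cells. The SD difference of A16 was -0.145 with the rescaled interquartile range in its place and -0.139 without cell 43. That of A23 was -0.335 with the rescaled interquartile range, -0.354 without scaling and -0.118 without cells above Ct 17. The rank share of A40 minus 0.5 was 0.042 without scaling. The cause of these changes was not tested. Without animal labels, neither the number of cells nor the depth of a reaction can show how far the groups differ beyond the spread between animals. No paired analysis was possible because equal numbers in the 2 groups do not mark a shared animal.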
